A study of Homo sapiens with 38 samples.

Results

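The promoters described here were those of protein-coding genes at which the density of DPPA4 CUT&RUN reads fell furthest after knockdown in both hairpin lines of the study. CUT&RUN maps a protein by letting an antibody tether a nuclease to it and sequencing the fragments that are cut free. Each gene had 1 promoter, the canonical transcription start site (TSS) plus and minus 1500 bp. A promoter was eligible when a DPPA4 domain from the broad-region caller EPIC2 touched it in all 4 DPPA4 libraries, which held for 11009 of 19970 promoters. The density was the summed reads over the summed length of the touching domains, in reads per kb, and the change was the log2 ratio of the density with doxycycline to that in control cells. Members were in the lowest 15% of this change in both lines. There were 527 of them, or 4.79% of the eligible promoters, in 493 units, since 34 pairs of neighbouring promoters were touched by exactly the same domains. The DPPA4 values below chose the members and are given as a description. They carry no test.

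The cells were H661, a human lung cancer line of the non-small cell type with endogenous DPPA2 and DPPA4. The shDPPA4 line carried a doxycycline-inducible short hairpin RNA against DPPA4, and the shDPPA2+4 line carried hairpins against both mRNAs, the second of which had been added to a DPPA2 hairpin line. Both lines were sorted populations and not single clones. Each was grown for 7 days with 2 µg/mL doxycycline (DOX) or with water (CTRL), and DPPA4, by an antibody against its N-terminus (DPPA4n in the plots), and RING1B were profiled in both arms. EP300, PCGF1 and MTF2 were profiled in CTRL cells alone. Further libraries came from parental H661 cells without hairpins (DPPA2 and 3 DPPA4 antibodies) and from H1299, another lung cancer line. H1299 cells were given inducible tagged DPPA2 and DPPA4 and grown for 7 days with 2 µg/mL doxycycline (6 antibodies, 2 replicates each). H661 had 1 library per antibody and arm, so differences between arms could not be checked in replicates and carry no p-value. No library of a non-targeting hairpin was used here, so that an effect of doxycycline itself and one of the knockdown cannot be told apart. Intervals below are 95% intervals. Those of reads and of single promoters cover counting error alone. Those of shares and medians treat promoters as independent, although promoters share libraries and some share domains. No interval covers the variation between cultures.

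DPPA2 and DPPA4 are small nuclear proteins with a DNA-binding SAP domain that work as a pair. They are made in the early embryo, in pluripotent cells and in the germ line, where they mark CpG-rich promoters of developmental genes, and they reappear in some tumours. RING1B is the ubiquitin ligase of Polycomb repressive complex 1 (PRC1), PCGF1 defines a variant form of that complex, and MTF2 brings Polycomb repressive complex 2 (PRC2) to unmethylated CpG-rich DNA. EP300 is a histone acetyltransferase of active promoters and enhancers. A broad domain of a chromatin protein can therefore cover a promoter in a repressed or in an active state.

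Members were put in order by the smaller of their falls in the 2 lines, as measured. That was the shDPPA2+4 fall at every member, since shDPPA4 changes were -1.68 or lower and shDPPA2+4 changes -1.48 or higher. The order therefore does not rank the depth of the fall in shDPPA4. To show the kind of DNA concerned, the RefSeq sequence from 250 bases before to 50 bases after the start (GRCh38.p14) is printed for CBS, HOXA6 and SIX4, which stand with ENSG00000257390 and CCR10 near the head of this order, and for the 2 promoters that head the opposite end, AURKAIP1 and NUDT14. Every CG dinucleotide, the step at which CpG methylation can occur, is in capitals. A RefSeq sequence was matched by symbol for 414 of the 527 members.
CBS: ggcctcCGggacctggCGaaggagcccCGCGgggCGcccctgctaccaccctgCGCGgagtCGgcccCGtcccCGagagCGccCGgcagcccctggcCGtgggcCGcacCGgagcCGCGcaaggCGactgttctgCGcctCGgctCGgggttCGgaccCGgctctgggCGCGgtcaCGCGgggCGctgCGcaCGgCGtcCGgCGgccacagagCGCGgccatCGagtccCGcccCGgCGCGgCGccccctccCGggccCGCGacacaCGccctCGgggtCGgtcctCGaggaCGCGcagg
HOXA6: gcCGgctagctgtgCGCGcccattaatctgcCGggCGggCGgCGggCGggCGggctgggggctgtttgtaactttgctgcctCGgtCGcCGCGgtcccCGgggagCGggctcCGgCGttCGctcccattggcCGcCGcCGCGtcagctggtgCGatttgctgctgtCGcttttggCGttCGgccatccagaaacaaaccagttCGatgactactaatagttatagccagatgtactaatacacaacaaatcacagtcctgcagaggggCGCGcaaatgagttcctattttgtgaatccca
SIX4: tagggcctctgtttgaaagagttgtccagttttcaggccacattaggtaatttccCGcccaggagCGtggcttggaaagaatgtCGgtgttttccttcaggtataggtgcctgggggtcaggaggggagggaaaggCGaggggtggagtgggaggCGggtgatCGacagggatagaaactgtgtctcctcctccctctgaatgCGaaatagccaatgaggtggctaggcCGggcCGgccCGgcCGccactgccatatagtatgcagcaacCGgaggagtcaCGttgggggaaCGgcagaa
AURKAIP1: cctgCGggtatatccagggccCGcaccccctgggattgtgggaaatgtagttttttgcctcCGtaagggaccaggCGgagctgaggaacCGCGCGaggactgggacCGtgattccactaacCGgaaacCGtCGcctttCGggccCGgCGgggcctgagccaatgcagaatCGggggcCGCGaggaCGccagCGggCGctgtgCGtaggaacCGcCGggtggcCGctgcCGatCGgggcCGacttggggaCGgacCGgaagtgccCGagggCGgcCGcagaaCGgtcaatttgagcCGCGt
NUDT14: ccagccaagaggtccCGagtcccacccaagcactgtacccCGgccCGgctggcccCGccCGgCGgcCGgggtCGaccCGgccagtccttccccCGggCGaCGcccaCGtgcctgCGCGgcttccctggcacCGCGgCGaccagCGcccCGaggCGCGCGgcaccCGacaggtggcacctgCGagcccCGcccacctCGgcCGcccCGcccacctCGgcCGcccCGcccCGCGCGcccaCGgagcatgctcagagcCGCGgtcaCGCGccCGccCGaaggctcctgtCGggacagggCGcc
CBS (cystathionine beta-synthase, of the transsulfuration pathway) lies on the minus strand at chr21:43076328-43076627 and held 50 CG steps. No DPPA4 domain covered this stretch in any of the 4 libraries. The RefSeq start lies 542 bases from the canonical start used here, and the domains lay further upstream, 866 to 1365 bp from the canonical start in CTRL cells of both lines. CBS has a near-identical copy on the same chromosome in this build, so its reads are uncertain. HOXA6, a homeobox factor of body patterning, has its stretch on the minus strand at chr7:27147725-27148024, with 29 CG steps. All of its 300 bases lay inside DPPA4 domains in all 4 libraries. SIX4, a homeobox factor of muscle and sensory organs, is at chr14:60724302-60724601 on the minus strand with 14 CG steps. Its stretch had 0 of 300 bases covered with DOX in both lines, against 300 in shDPPA4 CTRL and 299 in shDPPA2+4 CTRL cells. AURKAIP1, a mitochondrial ribosome protein (chr1:1375158-1375457, minus strand, 35 CG steps), was covered in full in all 4 libraries. NUDT14, a nucleoside diphosphate sugar hydrolase (chr14:105181263-105181562, minus strand, 44 CG steps), had 0 bases covered in shDPPA4 DOX and 162 in shDPPA2+4 DOX cells, against 300 in CTRL cells of each line. These stretches are examples and do not stand for the whole set. Among the leading units, CCR10, ENSG00000257390, BRICD5, NOXO1 and PLEC had CpG observed/expected ratios of 0.22, 0.35, 0.23, 0.21 and 0.48 within 500 bp of the start, and a ratio below 0.5 was found at 3.98% of members and 4.45% of eligible promoters. The ratio compares the CG steps present with those the C and G content predicts.

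Before the promoters are described, the libraries need a scale. DPPA4 domains held 1460152 reads with DOX and 6624283 in CTRL cells of the shDPPA4 line, against 2399349 with DOX and 2688073 in CTRL cells of the shDPPA2+4 line. Within a library, the deposited fold over IgG fixes its size relative to its IgG control, and both arms of a line had the same IgG counts in every domain with identical ends (445 in shDPPA4 and 535 in shDPPA2+4). The DOX library was therefore smaller than CTRL in shDPPA4 by 0.83 on the log2 scale (log2 ratio -0.83) and larger in shDPPA2+4 (0.95). Changes are given below as measured, and per library read after taking this ratio off. The scaling moves all promoters of a line alike and does not alter which are members. It can alter their order, which used the values as measured. Per library read the smaller fall can be that in shDPPA4, as at HOXA6 (-1.44, against -2.25 in shDPPA2+4). The limit of membership was a change of -1.68 in shDPPA4 and -0.12 in shDPPA2+4 as measured, or -0.85 and -1.07 per library read. Over eligible promoters the changes of the 2 lines had a Pearson r of 0.34 (n = 11009 promoters, which share the libraries and are not independent).

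**Figure D1:**
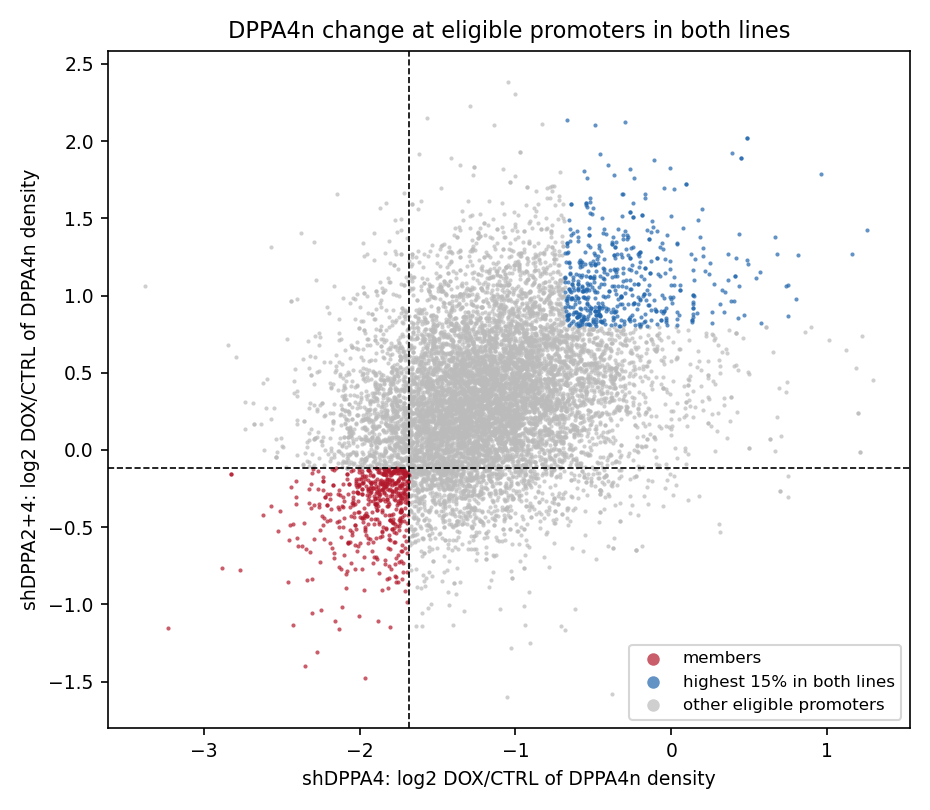
DPPA4 change at eligible promoters, as log2 DOX/CTRL of the density as measured, in shDPPA4 (horizontal axis) and shDPPA2+4 (vertical axis). Each point is 1 promoter. Dashed lines mark the limits of -1.68 and -0.12, members lie left of the first and below the second, and the 526 promoters in the highest 15% of both lines lie at the upper right.

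Eligibility required a DPPA4 domain with DOX, so promoters that lost theirs cannot be members. At the members, the domains called with DOX were thinner in reads. The median density was 32.5 reads per kb with DOX, against 123 in CTRL cells of shDPPA4, and 47.2 with DOX, against 61.6 in CTRL cells of shDPPA2+4. Over all eligible promoters the medians were 45.7 with DOX and 106 in CTRL in shDPPA4, and 63.7 and 51.7 in shDPPA2+4. Members were thus denser than the eligible median in CTRL cells and sparser with DOX. The median change per library read was -1.04 in shDPPA4 and -1.26 in shDPPA2+4 at the members, against -0.38 and -0.63 over eligible promoters.

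Domain length behaved in another way from density. Touching domains had a median length of 1500 bp with DOX and 2500 bp with CTRL in shDPPA4, and of 2000 bp and 2400 bp in shDPPA2+4, at the members. At the 526 promoters of the opposite end, called resistant below, the medians were 800 bp with DOX and 2500 bp with CTRL in shDPPA4, and 1100 bp and 2300 bp in shDPPA2+4. The name refers to density alone, with median changes per library read of 0.46 in shDPPA4 and 0.11 in shDPPA2+4. It does not mean that domain length or summed reads were kept. Domains were shorter with DOX at 93.2% of members, 97.0% of eligible and 99.6% of resistant promoters in shDPPA4, and at 76.9%, 86.6% and 98.9% in shDPPA2+4. Only domains that touched the promoter window were summed, so a length need not cover the same stretch in DOX and CTRL cells. In summed reads, with no division by length, the median log2 change of members was -2.61 in shDPPA4 and -0.62 in shDPPA2+4, against -1.97 and 0.04 at resistant promoters and -2.20 and -0.18 over all eligible promoters. Membership depended on the measure. Ranking by summed reads gave 817 promoters, or 7.42% of the eligible promoters, and 90 of them were members here (17.1% of the members). Ranking by the highest fold of MACS2 narrow peaks gave 399, or 4.07% of the 9813 promoters eligible by such peaks. Of these, 67 were members (12.7%). Both overlaps were above those background shares, yet most members were not chosen by either measure.

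**Figure D2:**
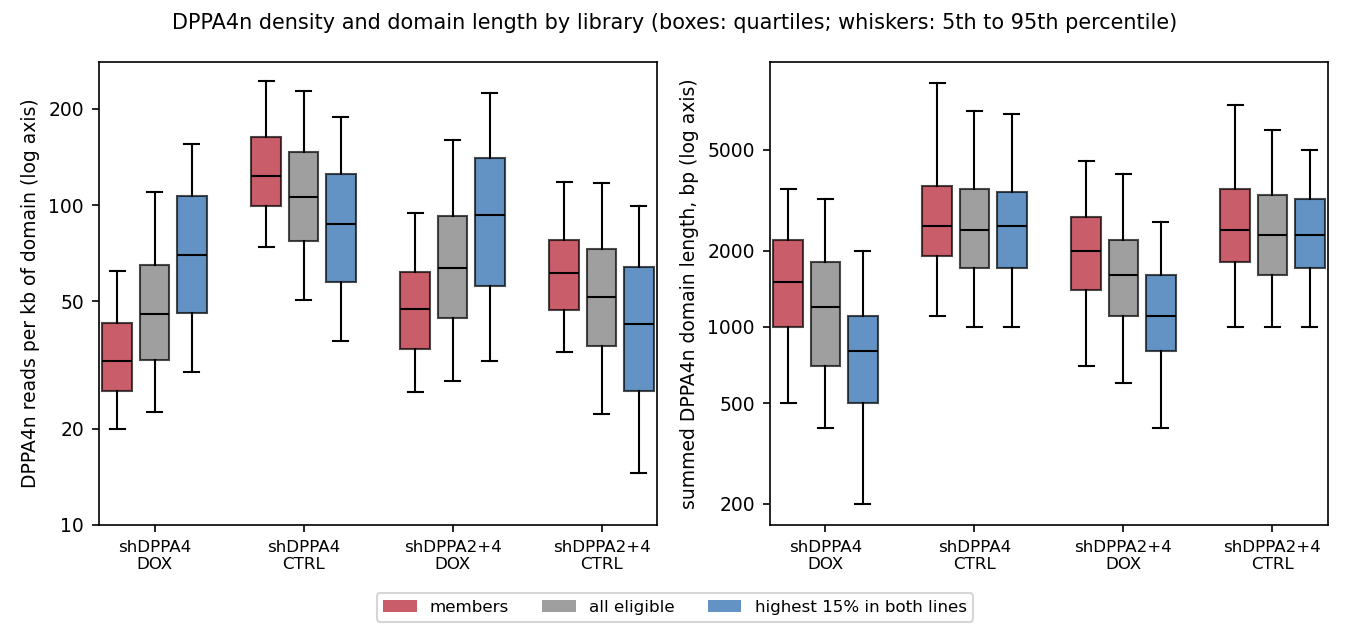
DPPA4 density (left, reads per kb, log axis) and summed domain length (right, bp, log axis) in the 4 DPPA4 libraries for members, all eligible promoters and resistant promoters (highest 15% in both lines). Boxes show quartiles and medians, whiskers the 5th to 95th percentile. Member densities sit lowest with DOX (medians 32.5 and 47.2) and highest in CTRL cells (123 and 61.6).

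The TSS lay under a DPPA4 domain at most members, as at most eligible promoters. It lay inside a domain at 433 members (82.2%) with DOX and 520 (98.7%) in CTRL cells of shDPPA4, and at 488 (92.6%) and 517 (98.1%) in shDPPA2+4. The eligible shares were 81.7% and 98.5% in shDPPA4, and 92.6% and 98.0% in shDPPA2+4. A MACS2 peak of DPPA4 touched 479 members (90.9%) with DOX and 527 (100%) in CTRL in shDPPA4, and 495 (93.9%) and 527 in shDPPA2+4, against 90.5% and 99.7%, and 95.3% and 99.5%, of eligible promoters. Where a peak was called, its median fold over background was 6.55 with DOX and 18.0 in CTRL in shDPPA4, against 6.78 and 13.7 over eligible promoters. In shDPPA2+4 the member medians were 7.83 with DOX and 16.0 in CTRL, against 8.66 and 13.9. Read counts of members were modest with DOX, with a median of 48 reads in shDPPA4 and 91 in shDPPA2+4, against 320 and 148 in CTRL cells. Over eligible promoters the medians were 54 and 100 with DOX, and 265 and 120 in CTRL cells. The lowest count at any member was 7 reads, and 437 members had at least 20 reads in every DPPA4 library.

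Among the promoters near the head of the order, CBS had 27.5 reads per kb with DOX and 140 with CTRL in shDPPA4, and 25 and 66.0 in shDPPA2+4, in a domain of 0.4 kb and 0.5 kb in each line. Its counts of 11 and 10 reads with DOX limit its precision, and the change had an interval of -2.59 to -0.35 in shDPPA2+4.

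HOXA6 had a broad control domain that reached well beyond the promoter window. In shDPPA4 CTRL cells 1 domain of 11.8 kb with 1357 reads ran from 1926 bp upstream of the HOXA6 start to 9873 bp downstream. With DOX, 3 domains with 57 reads over 2.4 kb touched the window. DOX domains outside the window were not counted, so the reads, lengths and densities of such broad domains come from stretches that differ between DOX and CTRL cells. The density was 23.8 reads per kb with DOX, against 115 in CTRL cells. In shDPPA2+4 it had 49 reads over 2.1 kb with DOX (23.3 reads per kb), against 548 reads over 9.5 kb in CTRL (57.7 reads per kb). The changes were -2.28 (-2.68 to -1.89) and -1.31 (-1.76 to -0.88).

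PLEC, which encodes the cytoskeletal linker plectin, had the longest control domain of the leading units shown here. In shDPPA4 the DOX domains touching its window measured 1.3 kb with 24 reads (18.5 reads per kb), and the CTRL domain, which reached far upstream of the window, measured 24.6 kb with 4253 reads (173 reads per kb). The change was -3.23 (-3.87 to -2.65). The shDPPA2+4 line had 121 reads over 3.5 kb with DOX (34.6 reads per kb), against 1524 reads over 19.8 kb in CTRL (77.0 reads per kb). CCR10, a chemokine receptor of skin-homing lymphocytes, likewise had 62 reads over 1.9 kb with DOX and 1684 over 9.6 kb in CTRL in shDPPA4, and 148 over 4.1 kb against 762 over 9.6 kb in shDPPA2+4. SIX4 had 18.3 reads per kb with DOX and 64.0 in CTRL in shDPPA4, and 20.0 and 44.3 in shDPPA2+4. Its DOX domain lay downstream of the start in both lines.

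Of the remaining first units, UNCX (a homeobox factor of the somites), ISLR2 (an immunoglobulin and leucine-rich repeat protein of neurons), BRICD5, NOXO1 (the organizer subunit of NADPH oxidase 1) and EPDR1 (an ependymin relative) had summed control domains between 5.7 and 10.9 kb over the 2 lines. ADAM23 (a non-catalytic ADAM protein of the synapse), PPP1R3G (a glycogen-targeting subunit of protein phosphatase 1), HECW2 (a HECT ubiquitin ligase) and the unnamed ENSG00000257390 had control domains between 2.2 and 4.6 kb in sum. EPDR1 was the densest of these in shDPPA4, with 46.9 reads per kb with DOX and 203 in CTRL cells of shDPPA4, and 50.0 and 101 in shDPPA2+4. HECW2 kept the most reads, 117 with DOX against 619 in CTRL in shDPPA4, and 151 against 273 in shDPPA2+4.

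**Figure D3:**
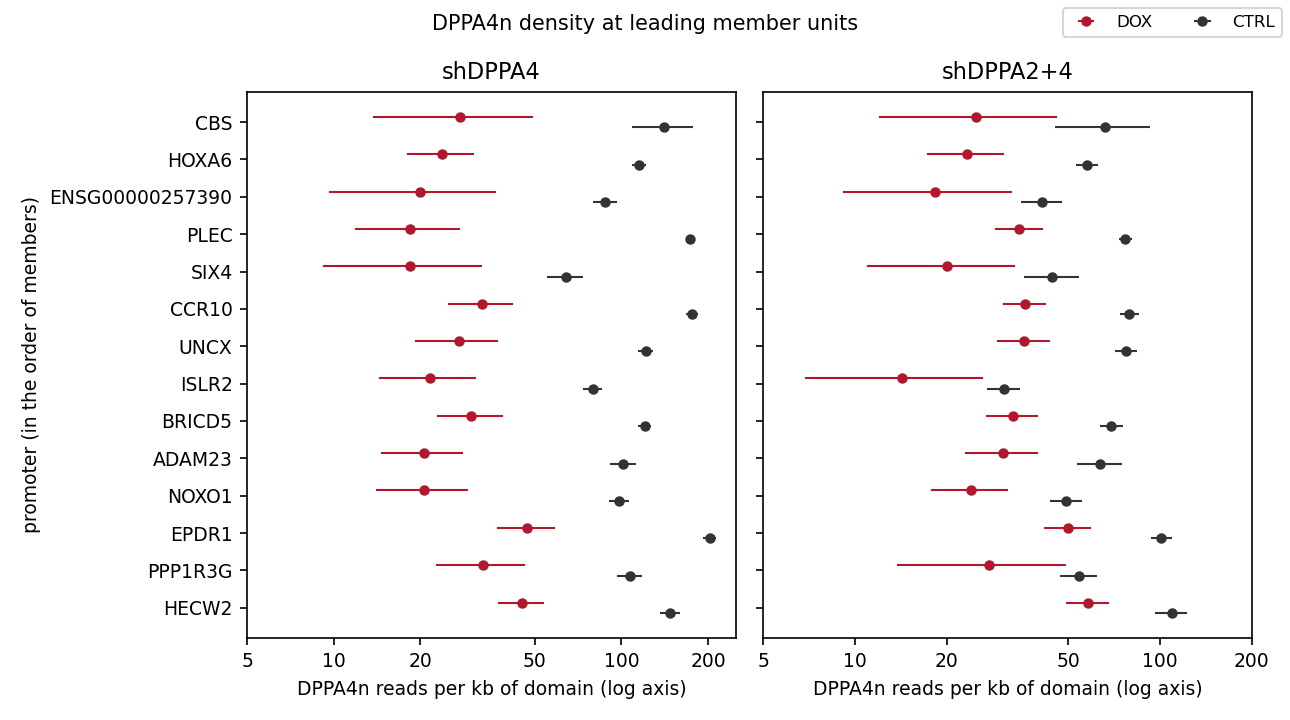
DPPA4 density in reads per kb of domain (log axis) at leading units of the order, with DOX above CTRL for each promoter, in shDPPA4 (left) and shDPPA2+4 (right). Bars are exact Poisson intervals of the reads. DOX densities lie between 14.3 and 58.1 reads per kb, below the CTRL density of the same promoter in both lines.

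The limit itself separated nearly equal promoters. Just inside it in shDPPA4 were ARHGDIA, with a change of -1.69, and ODC1 (ornithine decarboxylase, of polyamine synthesis), with -1.68. Just outside were GLIS1 (-1.68), a zinc finger factor used in reprogramming, and DOK6 (-1.68), a docking protein. In shDPPA2+4 the last promoters inside were RBM4B, an RNA-binding protein, and SERGEF, both at -0.12, and the first outside were ATRAID and SLC5A6, a vitamin transporter, which share their domains (-0.12). ODC1 had 23.3 reads per kb with DOX and 75 in CTRL, and GLIS1 had 30.0 and 96.2, in shDPPA4. The genes targeted by the hairpins were not members. The DPPA2 promoter had a change per library read of -0.13 in shDPPA4 and -0.74 in shDPPA2+4, and that of DPPA4 had 0.85 and -0.69.

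Among the gene lists used, developmental transcription factors held the largest share of members, 15 of 142 eligible genes (10.6%, interval 6.03 to 16.8%), beside 4.79% of all eligible promoters, and 3 of the 142 (2.11%) were resistant. The 15 were HOXA6, HOXA7, HOXA10, HOXC10, HOXC12, SIX4, FOXD2, FOXD3, FOXF1, FOXL1, FOXN2, SOX13, EN1, EMX1 and POU3F1. FOXD3, a forkhead repressor of the neural crest and of pluripotent cells, had 34.8 reads per kb with DOX and 112 in CTRL in shDPPA4, and 41.2 and 75.1 in shDPPA2+4. FOXD2, its paralogue, had 58.6 with DOX and 210 in CTRL in shDPPA4, and 64.4 and 106 in shDPPA2+4. The median change per library read of the 142 genes was -0.52 in shDPPA4 and -0.92 in shDPPA2+4, beside -0.38 and -0.63 over all eligible promoters. Since the ranking used these changes, the count is a description, and with 10% or 20% taken in each line the shares were 4.23% and 15.5%, beside 2.55% and 7.52% of all eligible promoters.

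Signalling genes gave smaller counts. Of 58 eligible Wnt genes, 5 were members (8.62%, interval 2.86 to 19.0%): FZD7 (a Wnt receptor), NOTUM (a carboxylesterase that inactivates Wnt proteins), WNT4, WNT9A and CELSR1 (a planar polarity cadherin). FZD7 was the densest of them, with 97.9 reads per kb with DOX and 333 in CTRL cells of shDPPA4, and 107 and 174 in shDPPA2+4. It had changes per library read of -0.93 and -1.64. Of 57 eligible Notch, Hedgehog, TGF-beta and BMP genes, 5 were members (8.77%): FSTL3 (an activin antagonist), NOTCH2, TGFBR3 (a TGF-beta co-receptor), SMAD7 (an inhibitory SMAD) and LTBP1 (a TGF-beta binding protein). NOTCH2 has near-identical copies in the genome, and its reads are uncertain. Of 87 receptor kinase and MAP kinase pathway genes, 5 were members (5.75%), among them AKT1, a survival kinase, with 21.3 reads per kb with DOX and 145 in CTRL in shDPPA4, and 40.0 and 68.4 in shDPPA2+4.

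Chromatin genes were members at the background share. Of 92 eligible histone modifiers and remodellers, 5 were members (5.43%): BAZ2A (a remodeller of ribosomal DNA), HDAC7 and HDAC11 (deacetylases), CHD7 (a remodeller of the neural crest) and KDM2A (a demethylase that binds CpG islands). BAZ2A had 40.0 reads per kb with DOX and 141 in CTRL in shDPPA4, and 41.9 and 78.0 in shDPPA2+4. PHC1, a PRC1 subunit, was the 1 member among 42 Polycomb genes (2.38%). Potassium channel genes had 1 of 22 (KCNG3).

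The lists that follow had shares below that of all eligible promoters. Their intervals included 4.79%, except those of the ZNF genes (1.02 to 4.60%) and of the cell cycle and replication genes (0 to 4.30%). The ranking itself set these counts, and many lists were compared without adjustment. The shares are therefore descriptions, carry no test and single out no list. Members made up 1 of 72 ribosomal protein genes (RPS15, 1.39%), 2 of 143 genes of the mitochondrial ribosome and respiratory chain (NDUFS3 and ATP5F1D, 1.40%), 8 of 339 ZNF genes (2.36%, among them ZNF746 and ZNF786), 2 of 100 splicing and RNA processing genes (SNRPB and AGO2), 2 of 76 DNA repair genes (REV1 and MUTYH), 1 of 60 autophagy and proteasome genes (WIPI2) and 4 of 166 solute carriers (SLC22A5, SLC35C1, SLC16A14 and SLC25A40). None of 84 cell cycle and replication genes was a member, which allows a share of up to 4.30%, and none of 56 replication-dependent histone genes (up to 6.38%). The lists of pluripotency, germline, lung lineage and protocadherin genes and the loci displayed by the study, which it had chosen on these samples, held between 12 and 16 eligible genes each and no member. Some of these members share a start region with a neighbour, as MUTYH does with TOE1, NDUFS3 with KBTBD4 and SLC25A40 with DBF4.

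By chromosome, the share of eligible promoters that were members ranged between 1.67% on X (5 of 300, interval 0.54 to 3.85%) and 12.1% on chromosome 18 (17 of 141, 7.18 to 18.6%). Chromosome 2 had 55 of 734 (7.49%) and chromosome 19 had 24 of 869 (2.76%). Whether chromosome copy number takes part in these shares was not tested.

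RING1B gave the first measure of change from libraries that the rule did not use. It was not fully independent of the selection. In each line, RING1B and DPPA4 domains with identical ends had the same IgG counts, so both were called and scaled against the same control. RING1B changes at members lay near those of all eligible promoters. In shDPPA4, RING1B domains in both arms touched 498 members, and their median log2 change per library read was -0.27 (interval -0.30 to -0.22), against -0.32 over 10099 eligible promoters and -0.39 over 474 resistant ones. A change of -0.5 or lower was found at 142 members (28.5%, interval 24.6 to 32.7%), with 31.8% over eligible promoters. Among resistant promoters the share was higher, 40.9% (interval 36.5 to 45.5%). In shDPPA2+4 the median was -0.72 (-0.77 to -0.68) over 385 members, against -0.71 over 7700 eligible and -0.76 over 367 resistant promoters. There, 281 members (73.0%, interval 68.3 to 77.4%) were at -0.5 or lower, with 70.0% over eligible promoters and 66.8% over resistant ones (61.7 to 71.6%). In both lines together 74 of 380 members (19.5%) passed, with 21.5% over eligible promoters and 25.5% over resistant ones. A rise of 0.5 or more occurred at 6 members in shDPPA4 (1.20%, with 2.01% over eligible promoters) and at 5 in shDPPA2+4 (1.3%, with 0.805%). Member shares were near the background in each of these counts. Without the scaling for library size the member medians were 0.09 in shDPPA4 and -0.03 in shDPPA2+4, so the direction in shDPPA4 and nearly the whole of the change in shDPPA2+4 rest on the scaling. Relative to the median of eligible promoters, members were at 0.05 and -0.01.

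RING1B domains went missing at about the same rate as elsewhere. A domain in CTRL and none with DOX was found at 12 members (2.28%) in shDPPA4 and 95 (18.0%) in shDPPA2+4, beside 2.98% and 19.8% of eligible promoters. Across members, the DPPA4 and RING1B changes had a Pearson r of -0.04 in shDPPA4 (498 promoters) and 0.05 in shDPPA2+4 (385 promoters). The RING1B changes of the 2 lines had an r of 0.10 over 380 members. These promoters share libraries, and the values are descriptions.

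**Figure D4:**
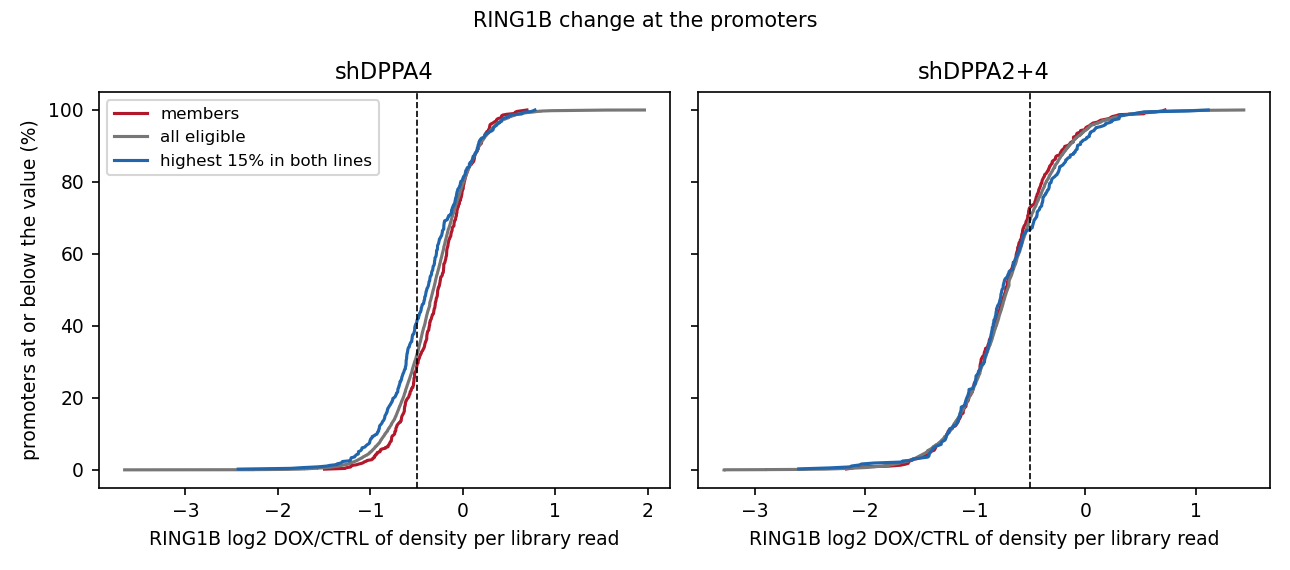
Cumulative share of promoters (vertical axis, %) at or below each RING1B change (horizontal axis, log2 DOX/CTRL of density per library read) for members, all eligible and resistant promoters in shDPPA4 (left) and shDPPA2+4 (right). The dashed line marks -0.5. The member and eligible curves lie close together, with member medians of -0.27 and -0.72 and eligible medians of -0.32 and -0.71. At -0.5, the share of resistant promoters was 40.9% in shDPPA4, against 28.5% of members, and 66.8% in shDPPA2+4, against 73.0%.

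At the 2 extremes of RING1B, counts were small. The lowest mean change over the lines was at POC1B, a centriole protein, and the read-through transcript POC1B-GALNT4 that shares its promoter, with -0.63 (-1.04 to -0.22) in shDPPA4 and -2.11 (-3.00 to -1.24) in shDPPA2+4. POC1B had RING1B densities of 38.3 reads per kb with DOX and 46.2 in CTRL in shDPPA4, and 21.0 and 56.0 in shDPPA2+4. GREB1L, a developmental cofactor of retinoic acid signalling, followed with -0.90 and -1.68, then GARRE1 with -0.94 and -1.50 and TM9SF4 with -0.26 and -2.17. The highest mean change, 0.35, was at MAP6D1, whose RING1B counts were 12 reads with DOX and 19 in CTRL in shDPPA4, and 8 and 12 in shDPPA2+4. CCR10 (0.64 in shDPPA2+4), SERGEF (0.54), TCFL5 and IGF2BP2 came next, each with intervals that included 0 in both lines.

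The other profiled proteins were compared in CTRL cells, where a domain had to be present in both lines. MTF2 was present at 462 of 527 members (87.7%, interval 84.6 to 90.4%), against 75% (74.2 to 75.8%) of eligible promoters and 309 of 526 resistant ones (58.7%, 54.4 to 63.0%). Each line alone gave the same order, with 91.7% of members, 82.3% of eligible and 68.3% of resistant promoters in shDPPA4, and 89.9%, 81.4% and 69.8% in shDPPA2+4. The densities of MTF2 where present differed little, with medians of 65.6 reads per kb at members and 63.3 over eligible promoters in shDPPA4, and 84.0 and 80.5 in shDPPA2+4. RING1B was present at 90.5% of members (87.7 to 92.9%), against 88.1% of eligible promoters, and PCGF1 at 30.0% (26.1 to 34.1%), against 27.5%. EP300 was present at 398 members (75.5%, 71.6 to 79.1%), against 79.0% of eligible promoters, and its density where present was lower, with medians of 33.3 reads per kb at members and 40.0 over eligible promoters in shDPPA4, and 36.8 and 46.3 in shDPPA2+4. RING1B density where present was lower too, 42.5 at members against 53.3 over eligible promoters in shDPPA4, and 34.3 against 41.25 in shDPPA2+4. The RING1B domains of members were longer, with medians of 1300 bp against 1000 bp in shDPPA4, and 1100 bp against 800 bp in shDPPA2+4. The lower RING1B density need not therefore mean fewer RING1B reads. PCGF1 density was 25 against 28.3 in shDPPA4, and 28.1 against 28.3 in shDPPA2+4. For RING1B, PCGF1 and EP300 the member interval of the share included the eligible share. When members were chosen by summed reads, the MTF2 share was 69.5%, below the eligible 75%, and that of RING1B was 70.9%, against 88.1%. Of the leading units shown here, UNCX had the densest MTF2 domains (323 reads per kb in shDPPA4 and 391 in shDPPA2+4 CTRL cells), while CBS, HOXA6, ENSG00000257390, PLEC, BRICD5 and NOXO1 had none in either line.

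Control DPPA4 domain length, control DPPA4 density and GC content all vary among promoters, so the shares were set out within 4 equal bins of the eligible promoters. By length, MTF2 was present at 87.3%, 91.5%, 95.1% and 76.4% of members, shortest bin first, against 76.1%, 77.0%, 78.3% and 68.5% of eligible promoters. By GC content, lowest bin first, the shares were 76.8%, 84.6%, 86.9% and 91.7% of members, against 62.3%, 71.0%, 80.9% and 85.9% of eligible promoters. By control density the member share was likewise the higher in each bin, 82.8%, 86.9%, 86.5% and 90.3%, against 67.5%, 78.1%, 78.9% and 75.5%. EP300 within the bins of control density, lowest first, was present at 31.0%, 57.2%, 80.9% and 92.6% of members, against 53.8%, 79.5%, 89.8% and 92.7%.

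**Figure D5:**
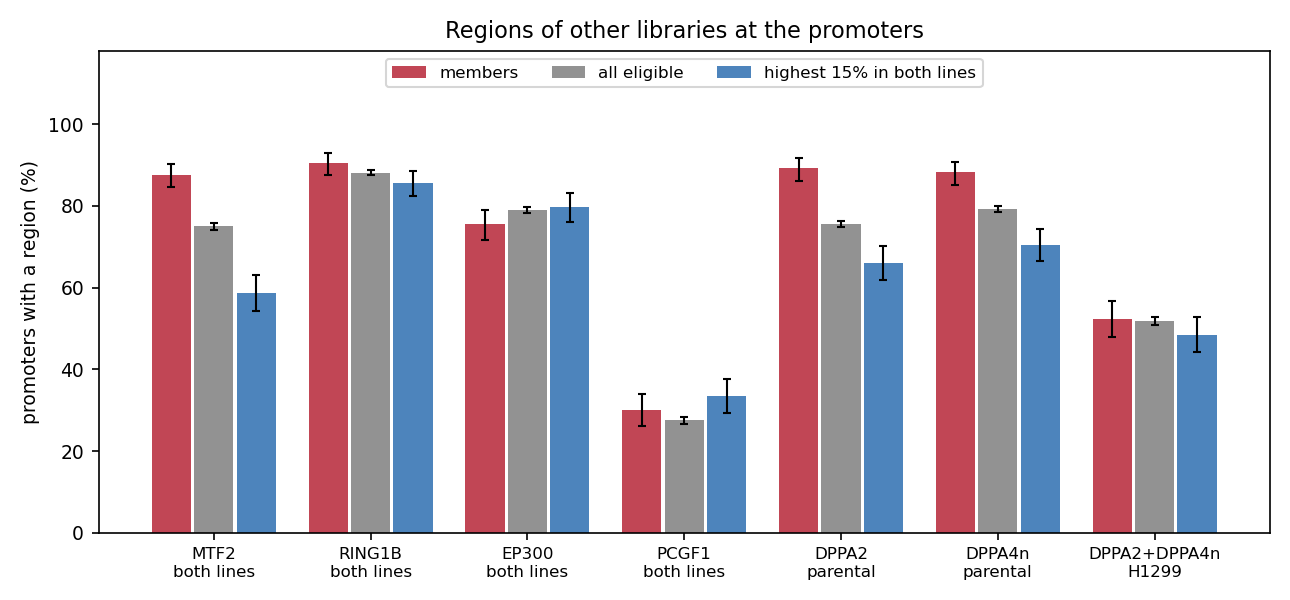
Percentage of promoters touched by regions of other libraries, for members, all eligible promoters and resistant promoters. Bars are shares and error bars exact binomial 95% intervals. MTF2 (87.7% of members against 75% of eligible promoters) and parental DPPA2 (89.2% against 75.6%) are higher at members.

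DPPA2 itself was measured in parental H661 cells, which carry no hairpin. A DPPA2 peak touched 470 members (89.2%, interval 86.2 to 91.7%), against 75.6% (74.8 to 76.4%) of eligible promoters and 66.2% (61.9 to 70.2%) of resistant ones. The median fold of those peaks was 7.79 at members, 6.86 over eligible and 6.66 over resistant promoters. FZD7 had a DPPA2 peak of 35.1-fold, FOXD2 of 19.8-fold, MAP3K20 (a stress kinase) of 15.3-fold and HDAC11 of 14.5-fold. HOXA6 had 5.66-fold and SIX4 3.94-fold. Within the bins of control DPPA4 domain length, the share with a DPPA2 peak was 58.8%, 95%, 97.9% and 96.4% of members, against 46.4%, 74.9%, 87.5% and 93.6% of eligible promoters. The N-terminal DPPA4 antibody gave a peak in parental cells at 465 members (88.2%), against 79.4%, with a median fold of 7.61 in both sets. Fewer resistant promoters had such a peak (70.5%), but its median fold was higher there (8.25). A second DPPA4 antibody gave 92.4% against 84.4%, and 76.0% of resistant promoters. Its median fold was 7.46 at members and eligible promoters, and 8.08 at resistant ones. The third DPPA4 antibody (DPPA4c in the labels), with few peaks, gave 8.35% against 9.76%. Both DPPA2 and N-terminal DPPA4 peaks were present at 438 members (83.1%), against 67.5% of eligible and 57.4% of resistant promoters.

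In H1299 cells given the tagged proteins, the share of members with domains lay near that of eligible promoters. The labels do not say whether the 2 replicates came from separate cultures. DPPA2 and DPPA4 domains in both replicates touched 276 members (52.4%, interval 48.0 to 56.7%), against 51.8% of eligible and 48.5% of resistant promoters. Replicate 1 gave 487 members (92.4%), against 94.4% of eligible promoters, and replicate 2 gave 276 (52.4%), against 51.8%. Replicate 2 thus set the count, and its DPPA4 library held 216593 reads in domains, against 2873001 in replicate 1. Densities at bound members were a little lower than over eligible promoters, with DPPA2 medians of 57.1 and 63.6 reads per kb in replicate 1, and 28.3 and 30.0 in replicate 2.

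The DNA of the members was richer in GC. In the reference, the TSS plus and minus 500 bp had a median GC content of 69.1% at members (interval 68.2 to 69.6%), against 64.5% over eligible and 61.8% over resistant promoters. The CpG observed/expected ratio was 0.83 (0.82 to 0.84), against 0.80 and 0.75. CpG-rich promoters, with a GC content above 55% and a ratio above 0.75, made up 73.1% of members (69.0 to 76.8%), against 60.7% of eligible and 45.1% of resistant promoters. Membership went along with GC content, with 2.03%, 2.83%, 5.56% and 8.72% of eligible promoters being members in the bins from low to high GC. GC content and the DPPA4 change had a Pearson r of -0.18 in shDPPA4 and -0.19 in shDPPA2+4 over the eligible promoters. The part of base composition in library preparation was not tested.

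Short motifs were counted in the 300-base RefSeq promoters, on both strands. A CCAAT box (CCAAT, bound by NFY) was present in 111 of 414 members (26.8%), against 38.3% of 8758 eligible and 51.8% of 427 resistant promoters, and 35.7% of all 27305 promoters in the table. A GC box (GGGCGG, bound by SP and KLF factors) was present in 76.6% of members, 73.8% of eligible and 68.9% of resistant promoters, and in 44.6% of all. CGCG occurred in 85.0%, 83.5% and 75.6%, and in 49.6% of all. A TATA box (TATAAA) was found in 3.86% of members and 5.18% of eligible promoters, with 12.0% of all, and the AP-1 site (TGANTCA) in 2.90% and 3.65%, with 7.76% of all. The ETS core (CCGGAAG) was found in 17.6% and 20.1%, with 10.7% of all, the core of the CRE (TGACG) in 29.7% and 35.0%, with 25%, the E-box (CACGTG) in 8.45% and 9.98%, with 7.43%, and the NRF1 core (GCGCATGC) in 4.35% and 5.80%, with 3.27%. Matches describe the letters in these windows and are not shown binding sites.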

How the data were processed

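CUT&RUN regions of H661 and H1299 cells were analysed as deposited. According to the submitters' processing notes, reads were trimmed with Trim Galore (0.6.6), aligned to hg38 with BWA (0.7.13) and handled with SAMtools (1.9) and Picard (2.6.0), and MACS2 (2.27.1) called peaks. The EPIC2 version is not given for these files in the sources used here. The authors called regions per library against IgG, with no pooling. The deposited EPIC2 files hold raw counts of the library and of IgG per domain, a log2 fold over IgG scaled for library size, and an FDR, which is an adjusted p-value. The deposited MACS2 files hold a fold enrichment, a ratio over local background, and a −log10 q-value.

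On the autosomes and X, domains were kept at an FDR under 0.05 and a log2 fold over 1, and peaks at a fold over 2. The study's blacklist was not applied. Every region fitted within the chromosome lengths of the GRCh38 reference, and starts came from GENCODE 44. Changes per library read subtract the log2 size ratio of the arms, from the constant that links fold and counts. Intervals are exact (Poisson for counts, Clopper-Pearson for shares, order statistics for medians; SciPy 1.17.1), and reads without molecular identifiers are not independent molecules. The selection code was tested on simulated data, with a smaller share taken in each line. The simulated DOX domains kept the ends of the CTRL domains and all passed the filter. That test therefore did not cover changes of domain length or of calling between the arms. The members and gene lists were chosen with earlier results of these data known. Named in full were the first 15 units of the order, and besides these at most 4 members per gene list in that order, the 5 lowest and 5 highest RING1B changes, the 2 promoters on each side of each limit, and DPPA2 and DPPA4, except that 1 of these units is not reported here. Members named beyond that rule were picked after their values were seen. In all, 17 alternatives were tried, 10 of them on each result recomputed.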

Additional observations from a re-analysis of the deposited data

Results flagged for a closer look

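Among members with RING1B domains in all 4 RING1B libraries, 2 of 380 (0.526%) had a RING1B change of at least 0.5 in opposite directions in the 2 lines. DTNB, which encodes beta-dystrobrevin, had a change per library read of 0.57 in shDPPA4 and -0.98 in shDPPA2+4. VSTM2B, an immunoglobulin domain protein, had 0.58 in shDPPA4 and -0.53 in shDPPA2+4. Each line had 1 library per arm, and the difference between the lines was not tested. Among eligible promoters the share was 1.46%.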

How the results depend on the processing

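The 12 main results were recomputed under 10 shared alternatives, and some under up to 3 more, which gave 129 values. Of these, 82 stayed within the 95% interval of the reported value (for the 2 set sizes, within 1.5 times), 44 moved further and 3 changed sign. Motifs, chromosomes, GC content and the other gene lists were not recomputed. No paired analysis was possible because no H661 arm had a second library. Limits on fold, window or caller changed the regions of the other libraries as well as the members, so each share is given beside that of eligible promoters under the same setting. The cause of the shifts was not tested.

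There were 281 and 828 members with 10% and 20% taken in each line, and 817 by summed reads, and 267 and 819 resistant promoters at 10% and 20%. The RING1B change at members in shDPPA4 was 0.30 when members and RING1B were both taken by summed reads (eligible -0.11), 0.089 unscaled (eligible 0.04), 0.052 relative to eligible promoters, and -0.38 by MACS2 fold (eligible -0.29). In shDPPA2+4 it was -0.78 within 500 bp of the TSS (eligible -0.71), -0.90 after IgG subtraction (eligible -0.90), -0.029 unscaled (eligible -0.02) and -0.014 relative to eligible promoters.

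With a log2 fold above 2, EP300 was at 49% of members (eligible 44.4%), RING1B at 73.0% (64.0%), PCGF1 at 20.2% (15%), MTF2 at 68.8% (46.7%), parental DPPA2 at 93.7% (81.2%) and both proteins in H1299 at 30.1% (28.2%). Within 500 bp of the TSS, EP300 was at 65.6% (77.7%), RING1B at 84.4% (87.5%), PCGF1 at 23.5% (25.4%), DPPA2 at 82.7% (70.8%) and H1299 at 43.8% (48.6%). For members by summed reads, EP300 was at 45.4% (79.0%), RING1B at 70.9% (88.1%), PCGF1 at 20.7% (27.5%), MTF2 at 69.5% (75%), DPPA2 at 83.6% (75.6%) and H1299 at 31.2% (51.8%), the CpG ratio was 0.808 (0.80), and 35.2% of developmental transcription factors were members (7.42% of eligible promoters). With MACS2 peaks throughout, EP300 was at 49.4% (56.9%), RING1B at 82.5% (84.1%), PCGF1 at 5.26% (2.62%), MTF2 at 71.4% (62.2%), DPPA2 at 84.7% (79.6%) and H1299 at 7.02% (6.79%). With no fold limit MTF2 was at 92.0% (84.7%) and H1299 at 56.9% (57.1%). At 10%, PCGF1 was at 34.2% (27.5%) and developmental transcription factors at 4.23% (2.55%). DPPA2 was at 86.0% at 20% and at 85.1% after IgG subtraction (75.6%). In H1299, leaving out each replicate in turn gave 52.4% to 92.4% (51.8% to 94.4%), and Flag superclonal and V5 antibodies gave 58.1% (52.7%). Within 250 bp of the TSS the CpG ratio was 0.88 (0.85).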
